A study of Mus musculus with 6 samples.

Results

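The genes described here belong to the Hippo pathway, a kinase cascade that controls the transcriptional coactivators YAP and TAZ. They are Yap1, Wwtr1, Tead1, Tead2, Lats2, Amotl2, Ankrd1 and Thbs1, listed by symbol, together with Ccn1 (formerly Cyr61) and Ccn2 (formerly Ctgf), 10 of the 27179 genes in the deposited table. RNA was sequenced from cerebral cortex of C57BL/6N mouse embryos at E18.5. The CAP1-KO group (3 libraries, FCRE3, FCRE4 and FCRE5) was Cap1flx/flx,Nestin-CRE, with Cre driven by Nestin regulatory sequence in neural progenitors. The Control group (3 libraries, FF1, FF2 and FF4) was Cap1 flx/flx without Cre. Both groups therefore carried the floxed alleles, and no group carried Cre alone. Cells outside the neural lineage are not the target of this Cre, and the cortex was sequenced in bulk. CAP1 is an actin-binding protein that promotes filament turnover.

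As background, the kinases MST1 and MST2 activate LATS1 and LATS2, which phosphorylate YAP and TAZ and hold them in the cytoplasm. Unphosphorylated YAP and TAZ enter the nucleus and bind the DNA-binding TEAD factors. Filamentous actin and tension favour this nuclear state, so YAP is an actin-sensitive regulator beside the MRTF-SRF pathway, in which MRTF is held back by monomeric actin. In the developing forebrain YAP and TAZ are found mainly in radial glia, astroglia and non-neural cells. RNA levels of Yap1 or Wwtr1 do not report where the proteins are.

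Upstream sequences are shown because YAP and TAZ act through TEAD factors, which bind DNA. Yap1, Wwtr1, Tead1 and Tead2 are in the group as pathway components, not as TEAD targets. RefSeq start sites in GRCm38.p6 were given for 7 of the 10 genes. In the 250 bases before the start, both strands were searched for GGAATG, the core that TEAD factors recognise, and for the CArG box, the SRF motif. At least 1 GGAATG was present for 5 of the 7 genes, against 12.6% of all 32851 promoters of that length. A CArG box was present for 0 of the 7, against 1.47% of all promoters. A gene counted when any of its promoters matched, and Wwtr1 and Lats2 had 2 each, while the percentages count single promoters. Among other YAP target genes, described below, 11 had a promoter given. GGAATG was present for 3 of the 11, and a CArG box for 0. In the stretches below, written on the strand of the gene, capitals mark GGAATG or its reverse complement. None of the stretches shown holds both motifs. The Yap1 and Amotl2 stretches precede start sites inside the genes, whose outermost starts are at chr9:8004638 for Yap1 and chr9:102717091 for Amotl2. The stretches lie at chr9:8004705-8004764 (Yap1, minus strand), chr3:57576014-57576073 (Wwtr1, minus), chr9:102717712-102717771 (Amotl2, plus), chr3:145650056-145650115 (Ccn1, minus) and chr19:36119952-36120064 (Ankrd1, minus).
Yap1: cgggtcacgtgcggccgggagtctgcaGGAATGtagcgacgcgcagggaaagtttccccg
Wwtr1: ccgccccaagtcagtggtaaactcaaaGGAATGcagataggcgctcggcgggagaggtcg
Amotl2: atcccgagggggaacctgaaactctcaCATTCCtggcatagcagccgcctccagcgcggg
Ccn1: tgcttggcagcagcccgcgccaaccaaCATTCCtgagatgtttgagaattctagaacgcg
Ankrd1: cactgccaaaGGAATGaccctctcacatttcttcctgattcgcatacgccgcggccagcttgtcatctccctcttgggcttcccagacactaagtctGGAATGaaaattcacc

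For contrast, a CArG box was present for 6 of the 13 MRTF-SRF target genes that rose in CAP1-KO and had a promoter in the same table, and GGAATG for 4 of the 13. The 13 come from a list of SRF targets and were kept for their calls in these data, so their share is no independent evidence. Promoters of MRTF-SRF targets that were not called were not counted. The stretches of 3 genes are shown, with the box in capitals: chr17:46556200-46556259 (Srf, minus strand), chr10:79988519-79988578 (Cnn2, plus) and chr11:120348551-120348610 (Actg1, minus). They were chosen after their fold changes were known. The Srf stretch precedes a start site inside the gene, whose outermost start is at chr17:46558267. A match describes the letters only.
Srf: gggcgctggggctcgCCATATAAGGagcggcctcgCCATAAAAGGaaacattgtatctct
Cnn2: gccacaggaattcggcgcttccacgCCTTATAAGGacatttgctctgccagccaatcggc
Actg1: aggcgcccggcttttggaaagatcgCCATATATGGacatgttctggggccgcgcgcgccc

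None of the YAP/TEAD genes passed the test in CAP1-KO against Control. Levels are given as CPM, read counts relative to library size as scaled in the deposited values, where 1 CPM was 31.2 to 37.3 reads. Of the 10 genes, 9 had a mean of at least 1 CPM and were tested, and 0 of 9 were called (limma, Benjamini-Hochberg adjusted p under 0.05 over all genes), against 0.965% of the 13885 genes tested. At an unadjusted p under 0.05 there were 3 of 9, Tead1, Ccn1 and Thbs1, against 23.0% of all genes. With limma-voom on recovered reads 0 of 9 were called as well. The 9 fold changes ran from -0.38 to 0.32 on the log2(CPM + 1) scale, with a median of 0.05, against -0.01 over all genes. None reached 1.5-fold in either direction, and 6 were within 1.2-fold. Cap1 itself, the deleted gene, measured 86.6, 85.9 and 82.9 CPM in FCRE3, FCRE4 and FCRE5, against 194, 193 and 166 CPM in FF1, FF2 and FF4.

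**Figure D1:**
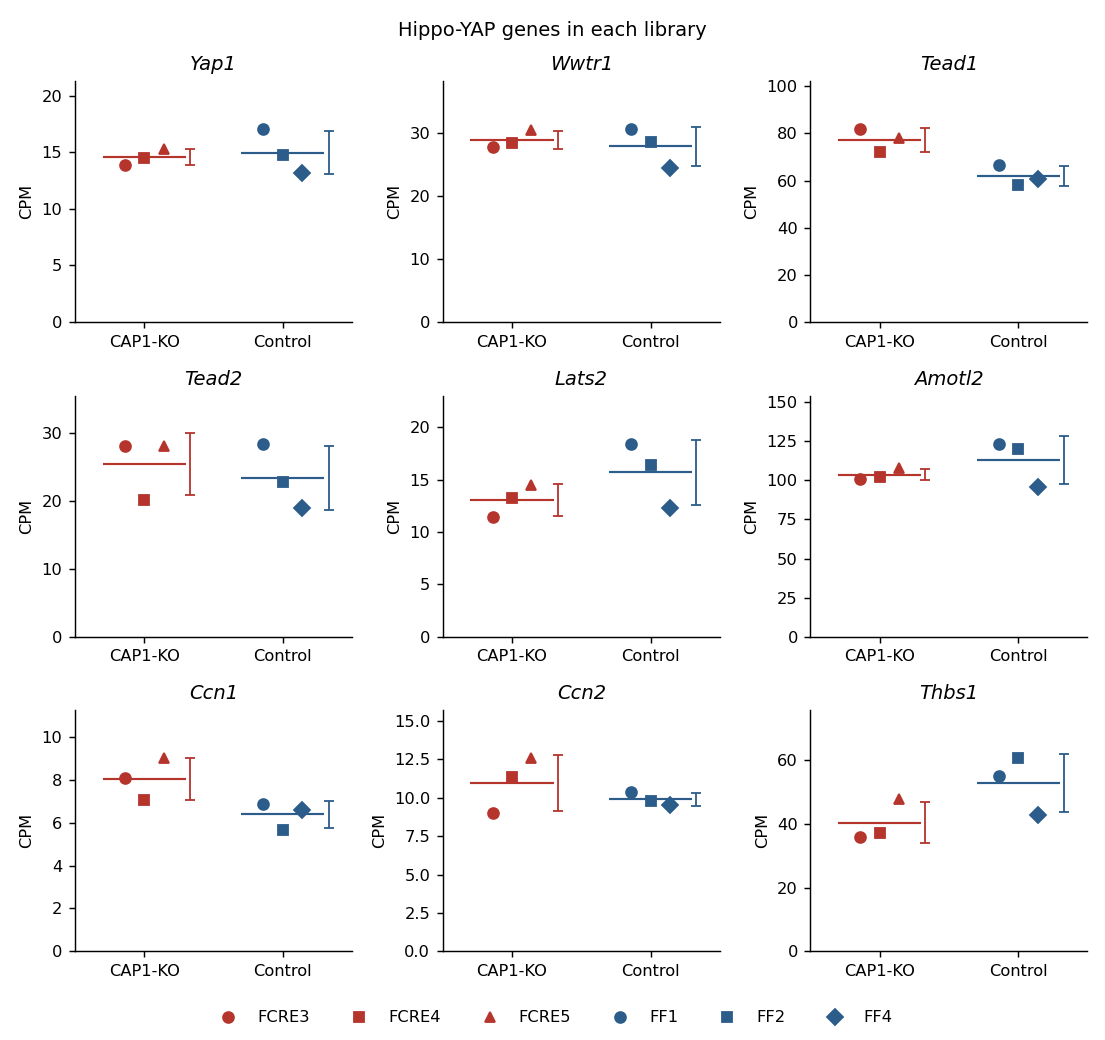
Level in CPM (vertical axes, starting at 0) of the 9 tested YAP/TEAD genes in each CAP1-KO and Control library. Points are libraries, lines are group means and bars are SD (n = 3 each). Tead1 and Ccn1 are the genes whose groups do not overlap, with every CAP1-KO library above every Control library.

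The transducers differed by less than their spread. Yap1, which encodes the coactivator YAP, measured 13.9, 14.5 and 15.3 CPM in FCRE3, FCRE4 and FCRE5, against 17.0, 14.7 and 13.2 CPM in FF1, FF2 and FF4. All the CAP1-KO values lay inside the Control range. The log2 fold change was -0.03 (95% interval -0.26 to 0.19, limma adjusted p = 0.874), and its sign turned to 0.03 when libraries were scaled to total reads. Wwtr1, which encodes the paralog TAZ, measured 27.7, 28.4 and 30.5 CPM across the CAP1-KO libraries, against 30.6, 28.6 and 24.4 CPM in FF1, FF2 and FF4. These values again fell within the Control range, and the log2 fold change was 0.05 (95% interval -0.15 to 0.26, limma adjusted p = 0.751). GENCODE M21 annotates Gm20416 on the opposite strand of 11167 bases of Yap1. The kit kept strand, but the strand setting of the counting was not stated.

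Per length of annotated exon, Wwtr1 transcripts exceeded Yap1 transcripts in both groups. Wwtr1 had 6.04 ± 0.30 CPM per kilobase in CAP1-KO and 5.83 ± 0.66 in Control, and Yap1 had 1.57 ± 0.077 in CAP1-KO and 1.62 ± 0.21 in Control (SD, n = 3 each). Wwtr1 thus made up 79.3% ± 0.17 of the summed level of both genes in CAP1-KO and 78.3% ± 0.67 in Control. With the longest coding transcript as the length, these shares were 63.8% ± 0.25 in CAP1-KO and 62.3% ± 0.93 in Control. The individual shares were 79.5%, 79.1% and 79.4% in FCRE3, FCRE4 and FCRE5, against 77.7%, 79.0% and 78.2% in FF1, FF2 and FF4. The lowest CAP1-KO share (79.1%, FCRE4) lay just above the highest Control share (79.0%, FF2). The levels of each gene overlapped between the groups, and the difference in share was not tested.

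Among the TEAD factors, the DNA-binding partners of YAP and TAZ, Tead1 was the closest to a call. It measured 81.8, 71.9 and 78.1 CPM in FCRE3, FCRE4 and FCRE5, against 66.4, 58.1 and 60.7 CPM in FF1, FF2 and FF4. Every CAP1-KO library was above every Control library. The mean was 77.3 ± 4.97 CPM in CAP1-KO and 61.8 ± 4.24 CPM in Control (SD, n = 3 each), a log2 fold change of 0.32 (95% interval 0.16 to 0.48, unadjusted p = 0.0019, adjusted p = 0.0801, limma). Without single libraries the limma adjusted p ran from 0.0132 (without FF4, 0.31) to 0.323 (without FCRE5, 0.31), and was under 0.05 without FF4 only. Against FF2 alone, the single female Control library, the value was 0.40 (adjusted p = 0.0239). In the authors' deposited table its log2 fold change was 0.32 and its FDR 0.0620, and 0 of the 10 genes had an FDR under 0.05 there.

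Tead2, a TEAD factor of neural progenitors, varied more within groups than between them. It measured 28.1, 20.2 and 28.1 CPM across the CAP1-KO libraries, against 28.5, 22.8 and 19.0 CPM in FF1, FF2 and FF4. The groups overlapped over nearly their whole range, and the log2 fold change was 0.12 (95% interval -0.27 to 0.51, limma adjusted p = 0.708). Its sign was negative without FF4 (-0.02). Of the remaining family members, Tead3, named like Tead4 and Vgll4 after its values were seen, measured 7.99 ± 0.26 CPM in CAP1-KO and 7.07 ± 0.29 CPM in Control (log2 fold change 0.16, limma adjusted p = 0.259). Tead4 was under 1 CPM and was not tested; it measured 0.21, 0.19 and 0.29 CPM in FCRE3, FCRE4 and FCRE5, against 0.61, 0.57 and 0.30 CPM in FF1, FF2 and FF4.

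Per length, Tead1 and Tead2 made up most of the TEAD transcripts in every library. Tead1 held 45.8%, 49.4% and 44.6% of the summed TEAD level in FCRE3, FCRE4 and FCRE5, against 40.4%, 41.9% and 46.9% in FF1, FF2 and FF4. Tead2 held 44.6%, 39.4% and 45.4% in the CAP1-KO libraries, against 49.1%, 46.5% and 41.5% in the Control libraries. The shares of both genes overlapped between the groups. Tead3 held 9.76% ± 0.81 in CAP1-KO and 9.97% ± 0.82 in Control, and Tead4 0.53% ± 0.090 in CAP1-KO and 1.27% ± 0.35 in Control (SD, n = 3 each). The shares depended on the length used. With the longest coding transcript, Tead3 held 15.9% ± 1.24 in CAP1-KO and 16.2% ± 1.26 in Control. Tead1 then held 42.7% ± 2.14 and 39.4% ± 2.91, and Tead2 41.0% ± 3.29 and 43.4% ± 3.86, in the same order of groups.

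**Figure D2:**
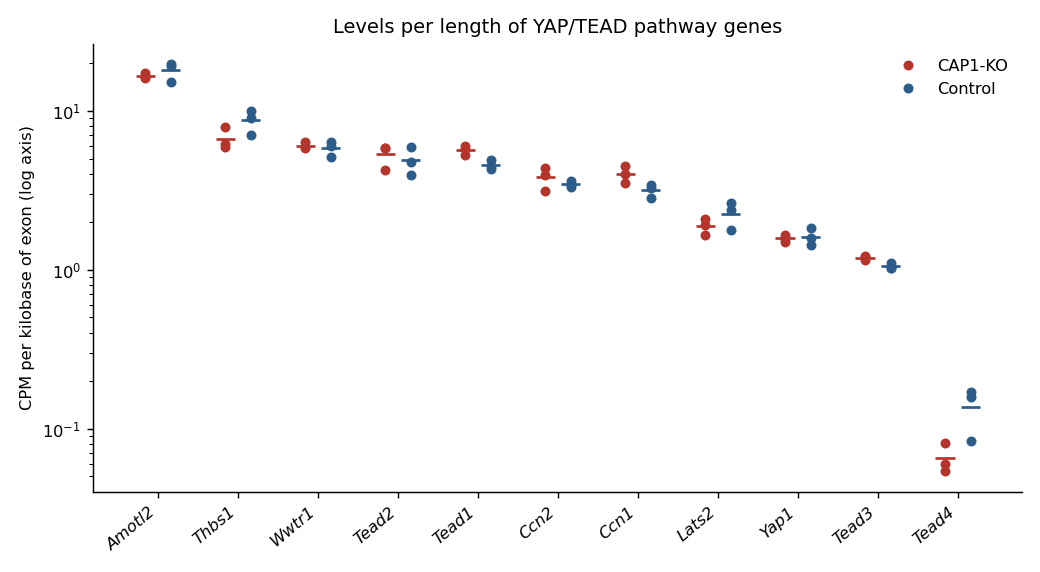
CPM per kilobase of exon (log axis) for the 9 tested YAP/TEAD genes and for Tead3 and Tead4, ordered by the Control mean; Ankrd1, at 2 reads in all, is not drawn. Points are libraries and lines are group means (n = 3 each). Of the genes drawn, Amotl2 is highest and Tead4 lowest in both groups.

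The order of levels per kilobase of exon in Control ran from Amotl2 (18.0 ± 2.42 CPM per kilobase) over Thbs1 (8.69 ± 1.49), Wwtr1 (5.83), Tead2 (4.89 ± 0.998), Tead1 (4.55 ± 0.31), Ccn2 (3.46 ± 0.15), Ccn1 (3.17 ± 0.31), Lats2 (2.26 ± 0.45) and Yap1 (1.62) to Tead3 (1.05 ± 0.044) and Tead4 (0.14 ± 0.046), with Ankrd1 at 0 below them. Among neighbours in this order, the ranges over the Control libraries overlapped between Wwtr1 and Tead2, between Tead2 and Tead1, between Ccn2 and Ccn1 and between Lats2 and Yap1. Within each Control library Lats2 was nevertheless above Yap1. With the longest coding transcript as the length, the Control order of some neighbours turned, with Tead2 at 6.90 ± 1.41, Tead1 at 6.20 ± 0.43 and Wwtr1 at 5.93 ± 0.67, and Yap1 (3.59 ± 0.46) above Lats2 (3.03 ± 0.60).

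The inhibitors that YAP itself induces, Lats2 and Amotl2, were numerically lower in CAP1-KO. Lats2, a kinase that phosphorylates YAP and TAZ, measured 11.5, 13.3 and 14.5 CPM in FCRE3, FCRE4 and FCRE5, against 18.4, 16.4 and 12.3 CPM in FF1, FF2 and FF4. FF4 lay within the CAP1-KO range, and FF1 and FF2 above it. The log2 fold change was -0.24 (95% interval -0.58 to 0.10, limma adjusted p = 0.371), and -0.39 without FF4 (adjusted p = 0.0230). It shrank to -0.12 without FF1 (adjusted p = 0.757) and to -0.15 without FCRE3 (adjusted p = 0.679). GENCODE M21 annotates a second gene, Gm49361, over 56442 bases of Lats2 on the same strand, and how reads were divided between them is not given in the sources used here.

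Amotl2, an angiomotin that binds YAP and F-actin at cell junctions, was the highest of these genes. It measured 101, 102 and 108 CPM across the CAP1-KO libraries, against 123, 120 and 95.5 CPM in FF1, FF2 and FF4. FF4 was the lowest of all 6 libraries, so the groups overlapped. The log2 fold change was -0.11 (95% interval -0.33 to 0.11, limma adjusted p = 0.509), and -0.23 without FF4 (adjusted p = 0.00663). It shrank to -0.05 without FF1 (adjusted p = 0.877), to -0.07 without FF2 (adjusted p = 0.826) and to -0.05 with total-read scaling (adjusted p = 0.693).

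The secreted matricellular targets did not share a direction. Ccn1, a heparin-binding matrix protein, measured 8.10, 7.06 and 9.01 CPM in FCRE3, FCRE4 and FCRE5, against 6.89, 5.69 and 6.62 CPM in FF1, FF2 and FF4. Every CAP1-KO library lay above every Control library, by a small margin between FCRE4 and FF1. The log2 fold change was 0.29 (95% interval 0.03 to 0.54, unadjusted p = 0.0312, adjusted p = 0.173, limma). Groups without overlap were found for 2 of 9 of these genes, Tead1 and Ccn1, against 25.6% of all genes tested. Both were higher in CAP1-KO, against 11.1% of all genes, and 0 of 9 were wholly lower, against 14.6%.

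Ccn2, the connective tissue growth factor, measured 8.98, 11.4 and 12.6 CPM across the CAP1-KO libraries, against 10.4, 9.77 and 9.55 CPM in FF1, FF2 and FF4. FCRE3 was the lowest library and FCRE5 the highest. The log2 fold change was 0.12 (95% interval -0.15 to 0.40, limma adjusted p = 0.562). It was 0.25 without FCRE3 (adjusted p = 0.319) and 0.03 without FCRE5 (adjusted p = 0.926). Gm15270 is annotated on the opposite strand of 1667 bases of Ccn2.

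Thbs1, thrombospondin 1, a matrix glycoprotein that inhibits angiogenesis and that astroglia secrete, measured 36.0, 37.3 and 47.7 CPM in FCRE3, FCRE4 and FCRE5, against 55.0, 60.6 and 42.9 CPM in FF1, FF2 and FF4. FCRE3 and FCRE4 lay below every Control library, while FCRE5 lay above FF4. The mean was 40.3 ± 6.46 CPM in CAP1-KO and 52.8 ± 9.04 CPM in Control (SD, n = 3 each), a log2 fold change of -0.38 (95% interval -0.72 to -0.04, unadjusted p = 0.0329, adjusted p = 0.177, limma). Without single libraries the limma adjusted p ran from 0.00908 (without FF4, -0.52) to 0.482 (without FF2, -0.27), and was under 0.05 without FF4 only. Against FF2 alone, a single Control library, the value was -0.59 (adjusted p = 0.0448), and with the Xist covariate -0.57 (adjusted p = 0.250). Ccn1, Ccn2, Ankrd1 and Thbs1 are also known as SRF targets in other cells.

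Ankrd1, a nuclear ankyrin-repeat protein of muscle and a standard YAP reporter gene, was practically without reads. The row with the symbol Ankrd1 carries the gene number of the microRNA gene Mir1950, and had 4 reads in CAP1-KO and 3 in Control. The row with the gene number of Ankrd1 has no symbol and held 2 reads in FCRE3 and 0 in every other library (exact permutation test, two-sided, p = 1, n = 3 each, where the smallest possible p is 0.1). Both groups were under the floor of 3 reads, so no fold change is given and Ankrd1 was not detectable at this depth.

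Much of the spread among these genes lay within Control. FF4 was the lowest Control library for 7 of 9 genes, with Tead1 and Ccn1 the exceptions, against 48.4% of all genes tested. It was also the lowest for 22 of the 27 other Hippo pathway genes tested and for 9 of 10 cortical neuron markers, which summed to 5817 CPM in FF4, 7045 CPM in FF1 and 7213 CPM in FF2. The part of these markers in the FF4 values was not tested. Without FF4, 4 of 9 were called, Tead1 higher and Lats2, Amotl2 and Thbs1 lower (limma, 2 Control libraries), against 28.2% of all genes. Sex was unevenly divided: Xist, the RNA of the inactive X, measured 2605, 2398 and 2653 CPM in FCRE3, FCRE4 and FCRE5, against 0.58, 2296 and 2.05 CPM in FF1, FF2 and FF4. Against FF2 alone, the female Control, 2 of 9 were called, Tead1 and Thbs1, against 13.2% of all genes, where the lone Control library is assumed to vary like the others. With the Xist level as a covariate 0 of 9 were called, against 0.187% of all genes.

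**Figure D3:**
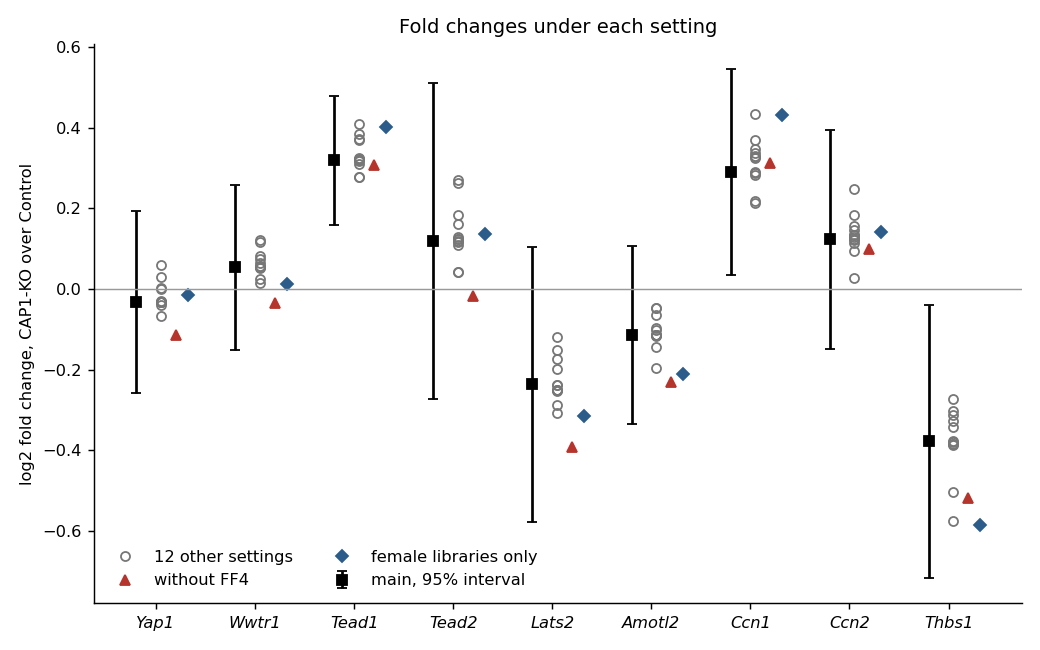
Log2 fold change of CAP1-KO over Control for each tested YAP/TEAD gene. Squares with bars are the main values with 95% intervals, circles are 12 other settings, triangles are the fit without FF4 and diamonds the female libraries alone; Tead1, Ccn1 and Ccn2 stay above 0 and Lats2, Amotl2 and Thbs1 below 0 under every setting plotted.

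The rest of the Hippo pathway had no calls. Among 31 further genes of the list, the test covered 27, and 0 passed in either direction (limma), against 0.965% of all genes. At an unadjusted p under 0.05 there were 9 of 27, against 23.0% of all genes, and the median log2 fold change was -0.05. Of the 27, 7 had groups without overlap, against 25.6% of all genes tested. The 6 upstream scaffolds and cadherins had negative fold changes, between -0.55 and -0.15. Wwc1, which encodes the LATS activator KIBRA, measured 72.4, 88.5 and 80.0 CPM in FCRE3, FCRE4 and FCRE5, against 135, 130 and 92.2 CPM in FF1, FF2 and FF4. The groups did not overlap, with FF4 closest to CAP1-KO (log2 fold change -0.55, SE 0.14, limma adjusted p = 0.106, and adjusted p = 0.000397 without FF4). Taok2, a kinase acting upstream of LATS, averaged 216 ± 11.0 CPM in CAP1-KO and 250.1 ± 14.7 CPM in Control (log2 fold change -0.21, limma adjusted p = 0.114, and 0.00471 without FF4). Without FF4, 13 of the 27 were called, against 28.2% of all genes, and with FF2 as the single Control library 3 of 27, against 13.2%.

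The 6 genes of the core kinase module ran from -0.28 (Sav1) to 0.17 (Mob1a), neither of which encodes a kinase. The kinase genes Stk3, Stk4 and Lats1 had log2 fold changes of -0.05, 0.01 and -0.11. The 8 junction and LIM-domain regulators ran from -0.04 to 0.38. The VGLL proteins compete with YAP for TEAD. Of their genes only Vgll4 exceeded 1 CPM, with 19.6 ± 0.97 CPM in CAP1-KO and 19.7 ± 1.97 CPM in Control (SD, n = 3 each).

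Other YAP target genes, 17 in number, were mixed in direction. Ptpn14, a phosphatase that binds YAP, is counted both here and among the junction regulators, where it had the highest value, 0.38. All 17 were tested, and 0 were called higher and 1 lower (limma), against 0.562% of all genes higher and 0.403% lower. At an unadjusted p under 0.05 there were 8 of 17, against 23.0% of all genes, and the median was 0.02. The gene that fell was Arhgef17, a guanine nucleotide exchange factor. It measured 67.2, 68.4 and 64.1 CPM in FCRE3, FCRE4 and FCRE5, against 86.9, 82.2 and 82.1 CPM in FF1, FF2 and FF4. The groups were well apart (log2 fold change -0.33, SE 0.05, limma adjusted p = 0.0295). Of the 17 genes, 6 had groups without overlap, against 25.6% of all genes tested. The Arhgef17 call held under 8 of 14 alternatives. Scaling to total reads ended the call (limma adjusted p = 0.0564), as did the Xist covariate (adjusted p = 0.238). Leaving out a single library ended it for FCRE3 (adjusted p = 0.108), FCRE5 (0.179), FF1 (0.150) and FF2 (0.119).

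The next by p pointed in opposite directions. Foxf2, a forkhead factor of brain pericytes, measured 2.95, 3.21 and 3.91 CPM in CAP1-KO libraries, against 5.58, 5.39 and 5.59 CPM in Control libraries (log2 fold change -0.59, limma adjusted p = 0.0545). Nt5e, the ecto-nucleotidase CD73, measured 3.46, 5.34 and 3.03 CPM in CAP1-KO libraries, against 1.22, 0.98 and 1.72 CPM in Control libraries (log2 fold change 1.08, limma adjusted p = 0.0555). Both genes were among the 6 of 17 whose groups were apart, against 25.6% of all genes tested. Without FF4 both genes were called (adjusted p = 0.00816 for Foxf2 and 0.00206 for Nt5e), as were 9 of the 17 in all, against 28.2% of all genes. Nt5e was also called with total-read scaling (adjusted p = 0.0458) and with FF2 as the single Control library (adjusted p = 0.0209).

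MRTF-SRF target genes, the other actin-sensitive program, differed in count and size. The test covered 24 of the 26 genes, with 18 called higher and 0 lower (limma), against 0.562% of all genes higher and 0.403% lower. The median log2 fold change was 1.04. The study's title names this program, so the list is not independent evidence of its direction. Flna, filamin A, an actin crosslinker, measured 1607, 1518 and 1620 CPM in FCRE3, FCRE4 and FCRE5, against 691, 705 and 687 CPM in FF1, FF2 and FF4 (log2 fold change 1.19, SE 0.06, limma adjusted p = 0.000105). In that list 17 of 24 genes changed by at least 1.5-fold in their point value, against 0 of 9 among the YAP/TEAD genes, 0 of 27 in the rest of the Hippo pathway, 2 of 17 among the other YAP targets (Foxf2 and Nt5e) and 302 of the 13885 genes tested. Without any single library, between 14 and 21 of the 24 were called. No test of the difference between the lists was run.

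**Figure D4:**
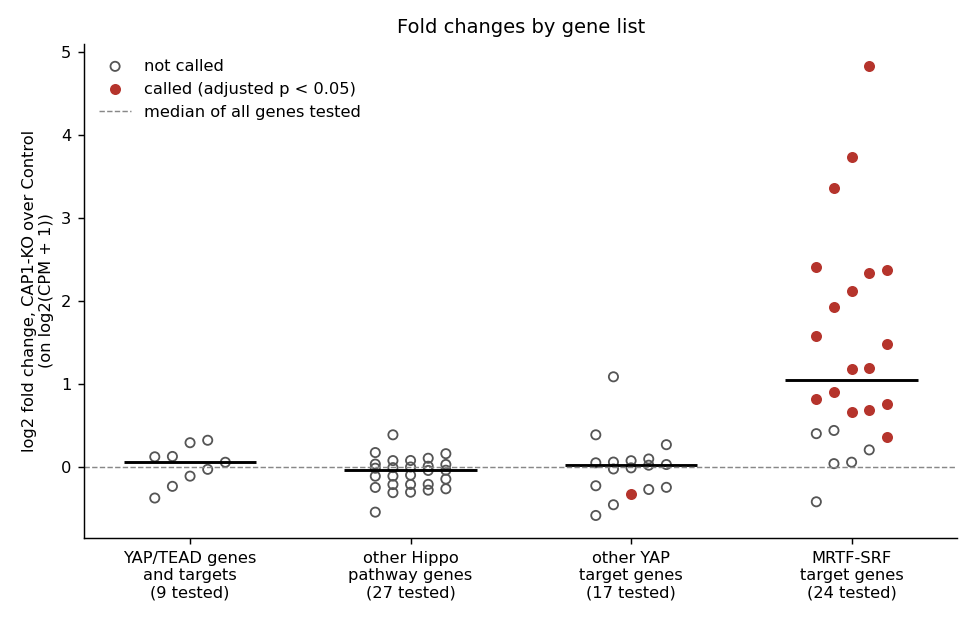
Log2 fold change of CAP1-KO over Control (vertical axis, on log2(CPM + 1)) for tested genes of the 4 lists. Filled points passed limma's adjusted p of 0.05, black lines are list medians and the dashed line is the median of all genes tested; the MRTF-SRF median is 1.04 and the other lists' medians lie between -0.05 and 0.05.

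Markers of cell types that express YAP, TAZ or their targets were measured in the same libraries. In bulk tissue, fewer cells of a type and less RNA per cell cannot be told apart. Endothelial markers summed to 169 to 196 CPM in CAP1-KO and 212 to 232 CPM in Control. Of the 10 tested, 2 were called lower (limma), Flt1 and Kdr, against 0.403% of all genes. All 10 log2 fold changes were negative, from -0.77 to -0.10. The groups were apart for 5 of the 10, all lower, against 14.6% of all genes. Meningeal fibroblast markers (10 genes, 0 of 8 tested called) summed to 61.1 CPM for FCRE3, 170.0 CPM for FCRE4 and 159 CPM for FCRE5, and to 57.6 to 62.7 CPM in Control. Choroid plexus markers summed to 55.1 to 119 CPM in CAP1-KO and 1.73 to 6.04 CPM in Control. Ttr made up most of the CAP1-KO sums, with 90.9, 104 and 47.0 CPM in FCRE3, FCRE4 and FCRE5. It was the 1 of 4 tested that was called higher, against 0.562% of all genes. The groups were apart for 3 of the 4, all higher, against 11.1% of all genes, and overlapped for Otx2. Mural markers summed to 158 to 181 CPM in CAP1-KO and 166 to 177 CPM in Control, and radial glia markers to 2123 to 2228 CPM in CAP1-KO and 2199 to 2415 CPM in Control, with 0 called in either list. Cortical neuron markers, present in all libraries, summed to 5484 to 5801 CPM in CAP1-KO and 5817 to 7213 CPM in Control, with 0 of 10 called. No marker was at 0 reads in any library. The part of these markers in the values of the YAP/TEAD genes was not tested.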

How the data were processed

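RNA of 3 CAP1-KO and 3 Control cortices was measured. Per the labels' protocols, poly(A) RNA was made into stranded libraries. The submitters' processing notes name STAR, edgeR, GRCm38 and mm10. No source used here gives the read counter, annotation or strand setting. The authors deposited log2 normalized counts per library, with their own log2 fold change, F score, p-value and FDR. Library numbers match no label, so columns were placed by genotype (FF, FCRE). The labels' protocols give 3 embryos per genotype.

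The shared lowest log2 value was removed, and all values of up to 2000 reads then lay within 0.01 of a whole read. Recovered depth ranged from 32443864 to 36302598 reads. Because the table held log2 values, log2(CPM + 1), a scale that understates changes of low genes, was tested with limma-trend (limma 3.58.1, R 4.3.3). The filter was a mean of 1 CPM or more and kept 13885 genes. P-values were Benjamini-Hochberg adjusted, with a threshold of 0.05. The procedure was tested on simulated reads. It recovered 66% of 100 genes changed 1.5-fold and 88% of 100 genes changed 2-fold, and called 8 unchanged genes. Smaller changes were not simulated. Reads were drawn independently for each gene, without a shift shared by many genes of a library, so these rates need not hold here.

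Genes were identified by gene number through RefSeq (GRCm38.p6), since 6293 of 24819 symbols named another gene than the gene number, 5 of them among 13614 tested genes with both. Exon lengths came from GENCODE M21. Named genes are the 10 genes, up to 6 called genes of each other list by p, and where fewer than 2 were called the 2 next by p; other genes were named after their values were seen. The genes and lists were chosen with earlier results of these data known. Alternatives were other scalings, limma-voom, no filter, a pseudocount of 0.1, the deposited values, an Xist covariate and leaving out libraries; the female libraries alone and the second length were added after seeing the data. Figures used matplotlib 3.10.9.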

Additional observations from a re-analysis of the deposited data

How the results depend on the processing

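The 134 calls over all genes became 88 without the filter, 26 with the Xist covariate, 1835 in the female libraries alone and 36 to 3914 when single libraries were left out. Called YAP/TEAD genes numbered 0 in the main analysis, 2 in the female libraries alone and 0 to 4 without single libraries. Other Hippo pathway genes numbered 3 in the female libraries alone and 0 to 13 without single libraries. Other YAP targets numbered 0 with the Xist covariate, 5 in the female libraries alone and 0 to 9 without single libraries. Called MRTF-SRF genes stayed within 1.5 times their main count under all 14 alternatives. Of 126 alternative values for the 9 tested YAP/TEAD genes, 115 kept their direction and their side of the threshold, 6 became called and 5 changed sign. The log2 fold change of Yap1 was 0.030 with total-read scaling and 0.0018 with the Xist covariate. Without single libraries it ran from -0.114 (without FF4) to 0.059 (without FF1) for Yap1, from -0.035 (FF4) to 0.122 (FF1) for Wwtr1 and from -0.016 (FF4) to 0.271 (FCRE4) for Tead2. The cause was not tested. Total-read scaling moved the median of all genes to 0.06. No paired analysis was possible because the library columns of the groups share only 1 number. Groups of 3 were too small for a test of outlying libraries.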

Other observations

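The symbol column of the deposited table and its gene numbers named different genes in 25.4% of rows that hold a symbol and a RefSeq gene number, and in 0.0367% of those with a mean of at least 1 CPM. Besides Ankrd1, the listed genes affected were Tead4, whose row carries the symbol Tex52, Vgll1 (Gm14718), Cnn1 (Acp5), Kl (Gm8675) and Folr1 (Tomt). All were placed by gene number. The other 9 YAP/TEAD genes had matching symbols and gene numbers.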
